A study of Mus musculus domesticus and Mus musculus domesticus x Mus musculus castaneus and Mus musculus castaneus with 27 samples.

Results

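Immediate early genes are switched on within minutes of a stimulus, without the need for new protein. Of the 27071 gene identifiers in the deposited count table, 10 such genes were chosen by symbol, with earlier results of these data known. They were matched to their Ensembl identifiers: Fos, Fosb, Jun, Junb, Egr1, Egr2, Ier2, Ier3, Dusp1 and Myc. All 10 were found. The study sequenced poly-A RNA of PSC, pluripotent stem cells of the mouse, and of MN, motor neuron cultures made from stem cells, to assess the identity of its cell lines. PSC libraries were made from C57BL/6 (BL6, n = 2), CAST/EiJ (CAST, n = 2) and a hybrid of CAST with 129 that is labelled CAS129 (n = 2). MN libraries were made from BL6 (n = 7), CAST (n = 1), 129S6/SvEv (129, n = 2), CAS129 (n = 3) and a hybrid labelled 129CAS (n = 1). No agent, transgene or deletion is named for any of them, the labels do not say whether replicates came from separate cultures, and they do not say what a replicate number marks. P-values therefore measure only the spread between these libraries, which may be technical.

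The 10 genes sit at the end of the path from growth factor receptors through Ras and the kinases ERK, JNK and p38 to the nucleus, where phosphorylated ternary complex factors and SRF start transcription. Fos and Jun proteins pair to form the transcription factor AP-1, Egr proteins are zinc finger factors, Myc is a basic helix-loop-helix factor that drives growth, and Dusp1 is a phosphatase that removes the phosphates of those same kinases. Their messenger RNAs are as a rule short-lived, and many are known to rise when cells are detached, given fresh serum or otherwise handled. Neurons also raise several of them with electrical activity.

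On GRCm38, Fos (ENSMUSG00000021250) lies on chromosome 12 from 85473890 to 85477273, Fosb (ENSMUSG00000003545) on chromosome 7 from 19302696 to 19310051, Jun (ENSMUSG00000052684) on chromosome 4 from 95049034 to 95052222 and Junb (ENSMUSG00000052837) on chromosome 8 from 84974484 to 84978718. Egr1 (ENSMUSG00000038418) lies on chromosome 18 from 34859823 to 34864984 and Egr2 (ENSMUSG00000037868) on chromosome 10 from 67535475 to 67542188. Ier2 (ENSMUSG00000053560) lies on chromosome 8 from 84661331 to 84662852, and Ier3 (ENSMUSG00000003541) and Dusp1 (ENSMUSG00000024190) on chromosome 17, from 35821684 to 35822923 and from 26505590 to 26562128. Myc (ENSMUSG00000022346) lies on chromosome 15 from 61985391 to 61990374. Exons of Jun share 232 bases with the antisense gene Junos and exons of Junb share 173 bases with Prdx2 on the opposite strand. Dusp1 shares 11 exon bases with Ergic1, also on the opposite strand. Whether reads were counted by strand is not stated, so the counts of Jun, Junb and Dusp1 are uncertain by the reads of those exons. No other stretch of 50 bases in a member's transcripts was shared with another gene.

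Messages that decay fast often carry AU-rich elements in the 3′ untranslated region (UTR), and the strictest such word is shown here because it separates members of the same list. The word TTATTTATT was searched on the transcript strand of the 3′ UTRs in GENCODE M21. It occurred in 2 of the 10 members, once in Fos and at 2 places in Dusp1, and in 6.8% of 17987 genes with an annotated 3′ UTR. Among genes with a 3′ UTR of similar length, 5.3% held it for Fos and 4.6% for Dusp1. The shorter word ATTTA, which every such nonamer contains, was present in 9 of 10 members, all but Ier2, and in 62.6% of all genes. Ier3 held 5 copies of it, the most of the 10. The 3 sites, written 5′ to 3′ on the transcript with the word in capitals and 10 bases on each side, were as follows. A match describes letters only.

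Fos, chr12:85477103-85477131, plus strand: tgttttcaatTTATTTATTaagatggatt

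Dusp1, chr17:26506159-26506187, minus strand: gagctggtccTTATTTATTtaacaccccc

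Dusp1, chr17:26505870-26505898, minus strand: gtttttacctTTATTTATTtttgtgtagg

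Depth was 4.5 M to 13.62 M counts a library for PSC and 5.61 M to 44.57 M for MN, and levels below are CPM (counts per M counts of the library) after scaling by TMM factors of 0.924 to 1.16. Of the defining markers, 8 naive pluripotency genes summed to 4332 to 5187 CPM in PSC and 44.7 to 1063 CPM in MN. The 9 motor neuron genes summed to 332.2 to 2050 CPM in MN against 6.06 to 40.1 CPM in PSC. In CAS129 MN replicates 1 and 2 the pluripotency sums, 1014.6 and 1063 CPM, exceeded the motor neuron sums of 332.2 and 368.5 CPM. In CAS129 MN replicate 3 the sums were 409.1 and 424.6 CPM. The MN libraries also carried 12 mesenchyme and fibroblast genes at a summed 17510 to 57849 CPM, against 2182 to 5761 CPM in PSC, with none of the 12 at 0 in any library. PSC and MN went through different RNA kits per the labels' protocols, and the kit cannot be told apart from the cell type. In such bulk RNA, fewer cells of a type and less RNA per cell cannot be told apart.

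The first question was how far the 2 libraries of each stem cell genotype differed in these genes. In each of the 3 genotypes, 8 members had the higher level in replicate 1: Fos, Fosb, Jun, Junb, Egr1, Egr2, Ier2 and Dusp1. Ier3 was higher in replicate 2 in both genotypes where it had counts, and Myc had no common direction. Ratios within a genotype are given with a 95% interval that covers counting error only, since reads without molecular identifiers are not independent molecules. Where replicate 2 had 0 counts the ratio is a lower bound, computed with 3 counts in that library.

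**Figure D1:**
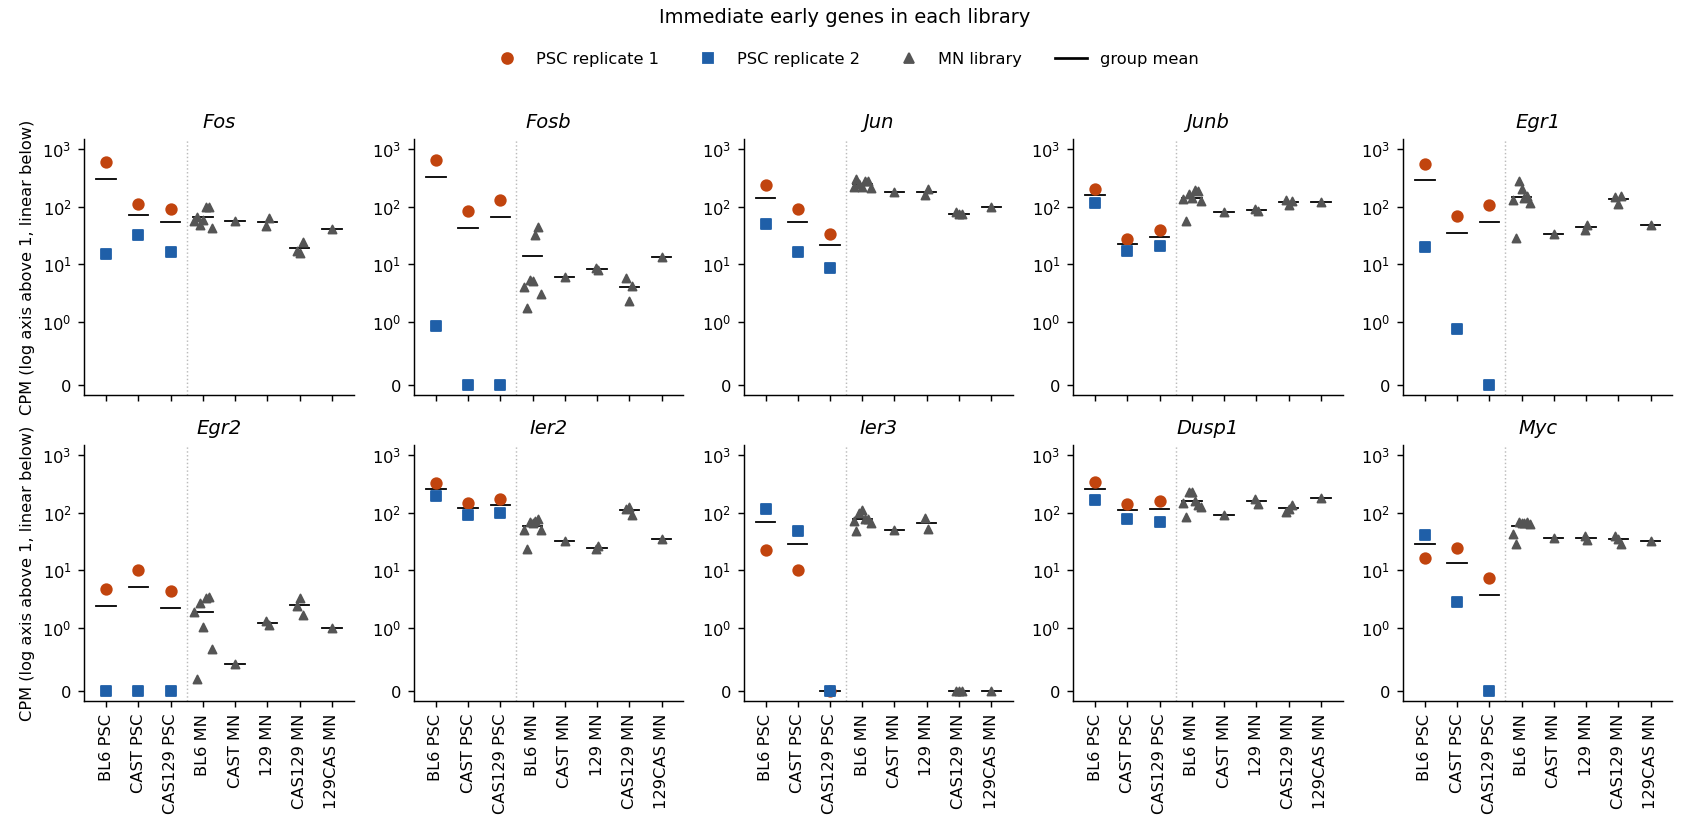
CPM of each immediate early gene (vertical axis, logarithmic above 1 CPM and linear below) in the 20 libraries by group. Circles are PSC replicate 1, squares PSC replicate 2, triangles MN libraries and bars group means; Fosb runs from 86 to 663 CPM in the circles and from 0 to 0.93 CPM in the squares.

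Fosb, a Fos family partner of Jun proteins, spanned the widest range. It stood at 663.0 CPM in BL6 PSC replicate 1 (9237 counts) and at 0.93 CPM in replicate 2 (12 counts), a ratio of 713 (interval 408.0 to 1380). In CAST PSC it was at 86 CPM (775 counts) in replicate 1 and at 0 counts in replicate 2, at least 228.8-fold lower. In CAS129 PSC it was at 133.4 CPM (852 counts) and again at 0, at least 227.3-fold lower. The 3 libraries numbered 1 were high and the 3 numbered 2 near or at 0, with no overlap. A count of 0 allowed up to 0.376 CPM in CAST replicate 2 and up to 0.587 CPM in CAS129 replicate 2. Replicate 2 was lower by a log2 of -9.83 (SE 0.49, adjusted p = 0.00018) with edgeR's quasi-likelihood test over the 6 libraries, genotype being a term; 2 libraries at 0 make this fitted value depend on the prior count.

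Fos, the founding partner of AP-1, was at 601.5 CPM in BL6 PSC replicate 1 and 15.2 CPM in replicate 2, a ratio of 39.6 (interval 34.4 to 45.9). CAST PSC held 109.7 and 32.1 CPM, a ratio of 3.42 (2.98 to 3.94), and CAS129 PSC 91.3 and 16.4 CPM, a ratio of 5.56 (4.41 to 7.07). The libraries numbered 1 lay above all those numbered 2, but the size of the gap was uneven between genotypes. Of all genes tested, 14.9% in BL6, 6.79% in CAST and 7.36% in CAS129 were over 2-fold higher in replicate 1. Over 2-fold higher in replicate 2 were 7.36%, 6.1% and 10.1%. A wider gap in BL6 was thus not particular to these genes. For Fos the test gave a log2 of -3.12 (SE 0.62, adjusted p = 0.073), which did not pass the threshold of 0.05. Leaving out any 1 of the 6 libraries removes its genotype from this test, and the log2 of Fos then ran from -3.9 to -2.1. Too few libraries remain in such fits to measure the spread, so whether Fos passed there is not given.

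Jun, which can bind DNA with itself or with Fos, was at 240.0 and 50.3 CPM in BL6 PSC, at 93.2 and 16.4 CPM in CAST PSC and at 33.8 and 8.61 CPM in CAS129 PSC, replicate 1 first. The ratios were close to each other at 4.77 (interval 4.39 to 5.2), 5.68 (4.72 to 6.88) and 3.93 (2.83 to 5.57). Replicate 2 was lower by a log2 of -2.25 (SE 0.25, adjusted p = 0.011). Junb, a weaker activator of the same family, moved least of the AP-1 genes. It was at 207.7 and 116.7 CPM in BL6, 27.8 and 17.3 CPM in CAST and 39.1 and 20.9 CPM in CAS129, with ratios of 1.61 to 1.87, and its log2 of -0.80 (SE 0.23, adjusted p = 0.22) did not pass.

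Egr1, a zinc finger factor that binds GC-rich promoters, followed Fosb. It was at 562.0 CPM in BL6 PSC replicate 1 and 20.3 CPM in replicate 2, a ratio of 27.7 (interval 24.5 to 31.4). In CAST PSC it was at 70.3 CPM (634 counts) and 0.877 CPM (7 counts), a ratio of 80.2 (38.7 to 200.3). In CAS129 PSC it was at 107.7 CPM (688 counts) and at 0 counts, at least 183.6-fold lower. Replicate 2 was lower by a log2 of -5.97 (SE 0.65, adjusted p = 0.011). Its relative Egr2, best known from hindbrain and Schwann cells, was a low message at 4.81, 10.1 and 4.38 CPM in replicate 1 of BL6, CAST and CAS129. It had 0 counts in replicate 2 of all 3, so that it was at least 20.7-fold, 26.9-fold and 7.47-fold lower there (fitted log2 -8.87, adjusted p = 0.023, not a bound).

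Ier2, a small nuclear protein of the early response, was at 325.5 and 196.6 CPM in BL6, 148.4 and 92.2 CPM in CAST and 174.7 and 99.4 CPM in CAS129. Its ratios of 1.61 to 1.76 were as even as those of Junb, and its log2 of -0.74 (SE 0.21, adjusted p = 0.23) did not pass. Dusp1 was at 350.1 and 168.4 CPM in BL6, 143.4 and 79.7 CPM in CAST and 160.0 and 69.8 CPM in CAS129, with ratios of 1.8 to 2.29 (log2 -1.03, SE 0.22, adjusted p = 0.097). Both genes were therefore well expressed in replicate 2, where Fosb and Egr2 were near or at 0.

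Ier3, an early response gene linked to cell survival, went the other way. It was at 22.8 CPM in BL6 PSC replicate 1 and 115.5 CPM in replicate 2, 5.06-fold higher in the latter, and at 10.3 and 47.4 CPM in CAST PSC, 4.59-fold higher. It had 0 counts in both CAS129 libraries. The log2 of 2.27 (SE 0.32, adjusted p = 0.03) passed, but rests on BL6 and CAST only. It was 2.34 without CAST PSC replicate 1 and 2.35 without CAST PSC replicate 2. Those fits hold too few libraries to measure the spread. Myc was at 16.2 and 41.5 CPM in BL6, 2.57-fold higher in replicate 2. In CAST it was at 24.4 and 2.76 CPM, 8.86-fold higher in replicate 1 (interval 5.7 to 14.4), and in CAS129 at 7.36 CPM and 0 counts, at least 12.5-fold higher in replicate 1. Its log2 over the 3 genotypes was -1.76 (SE 1.11, adjusted p = 0.6).

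**Figure D2:**
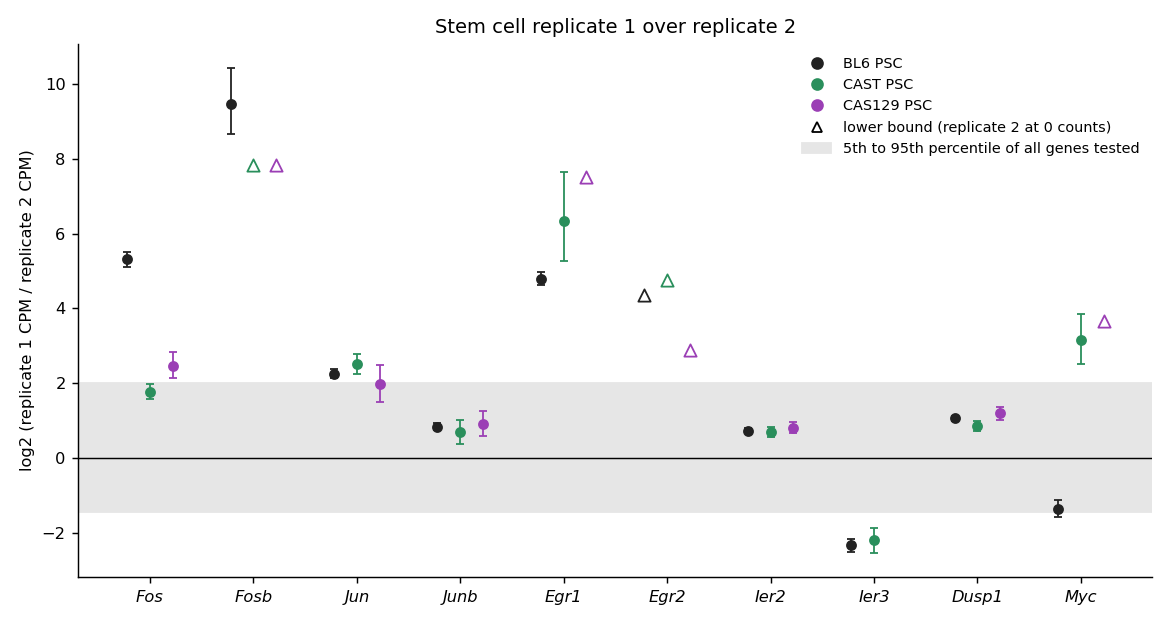
Log2 ratio of PSC replicate 1 to replicate 2 for each immediate early gene (vertical axis) in BL6, CAST and CAS129 (colours). Points have 95% counting intervals, open triangles are lower bounds, and the grey band runs from the lowest 5th percentile (-1.45) to the highest 95th percentile (2.01) of the 3 genotypes over 13795 genes; Fosb, Egr1 and Egr2 lie above it in all 3.

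With edgeR's quasi-likelihood test, 4 of 10 members were lower in replicate 2 (Fosb, Jun, Egr1, Egr2) and 1 was higher (Ier3), while 0.703% of the 13795 genes tested were called in either direction. Called lower were 0.442% of all genes, and called higher 0.261%. The median log2 of the members was -2.01, against 0.02 over all genes tested. Since the members were chosen with earlier results of these data known, these shares and the ranks below describe the list only. Leaving out either BL6 library removes BL6 from this test. All 10 members were then called, beside 6.83% of all genes without BL6 PSC replicate 1 and 7.1% without BL6 PSC replicate 2. DESeq2 called 9 members and 2.52% of all genes.

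By size alone, 5 of 10 members were over 2-fold higher in replicate 1 in all 3 genotypes (Fos, Fosb, Jun, Egr1, Egr2), beside 177 genes or 1.28% of those tested. Over 4-fold in all 3 there were 33 genes (0.239%) and 3 members, and over 8-fold 8 genes (0.058%) and 2 members. Ranked by the smallest of their 3 ratios, Fosb was the first and Egr1 the second of 13795 genes, Egr2 stood at place 9, Jun at 36 and Fos at 51. Dusp1, Junb and Ier2 stood at 242, 320 and 321. Of 8998 genes over 10 CPM in CAST PSC replicate 1, only Egr2 and Fosb had 0 counts in replicate 2. Of 8248 such genes in CAS129 PSC, only Egr1 and Fosb did.

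Of 34 other immediate early genes matched in the table, 33 were tested between the replicates. The test called 5 lower and 2 higher in replicate 2, with a list median of -0.55, and 21 had an unadjusted p under 0.05. Ccn1 (Cyr61), a matricellular protein, was lower by a log2 of -3.07 (SE 0.31, adjusted p = 0.011). It was at 347.8 and 37 CPM in BL6, 171.2 and 22.5 CPM in CAST and at 0 counts in both CAS129 libraries, as was Ccn2. Ccn2 (Ctgf), its relative, was lower by -2.45 (SE 0.30, adjusted p = 0.021) and Ptgs2, the inducible cyclooxygenase, by -2.24 (SE 0.34, adjusted p = 0.03). Atf3, an AP-1 partner induced by stress, and Trib1 were also called lower, at -3.12 and -1.87, whereas Gadd45b and the clock gene Per1 were called higher at 1.82 and 1.60. These last 4 were named so that all 7 calls are listed, after their values were seen.

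Of the lists around the members, edgeR's quasi-likelihood test called 0 genes between replicates. Unadjusted p was under 0.05 for 1 of 24 genes of the SRF and ERK path, 8 of 15 ERK phosphatases and feedback genes, 0 of 13 AP-1 and ATF partners, 2 of 9 genes of the Myc network and 1 of 3 Egr corepressors and relatives. DESeq2 called 1, 1, 0, 2 and 0 of them. Medians of these 5 lists lay between -0.18 and 0.02.

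Markers of mesenchyme and fibroblasts moved with the replicate number too. The 12 mesenchyme and fibroblast genes summed to 5185 to 5761 CPM in the replicates numbered 1 and to 2182 to 3540 CPM in those numbered 2, with none at 0. Of these 12, 5 were lower in replicate 2, among them smooth muscle actin Acta2 at a log2 of -5.07 (SE 0.36, adjusted p = 0.0013) and the collagens Col1a1 at -1.83 (adjusted p = 0.038) and Col1a2 at -2.51 (adjusted p = 0.026). The pluripotency factor Klf4 was lower at -1.65 (adjusted p = 0.035). Of 15 heat shock and stress genes, 1 was called, the chaperone Hspa1b, higher at 3.58 (adjusted p = 0.036). That list had a median of -0.14, and its sums had no common direction, at 12483 and 11566 CPM in BL6, 14008 and 16914 CPM in CAST and 13942 and 14117 CPM in CAS129. The naive pluripotency genes as a list summed to 4561 to 5124 CPM in the replicates numbered 1 and 4332 to 5187 CPM in those numbered 2. Depth was alike within a pair, at 12.99 M and 13.62 M in BL6, 8.72 M and 8.39 M in CAST and 5.51 M and 4.5 M in CAS129. The part of these other cells in the members' values was not tested.

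**Figure D3:**
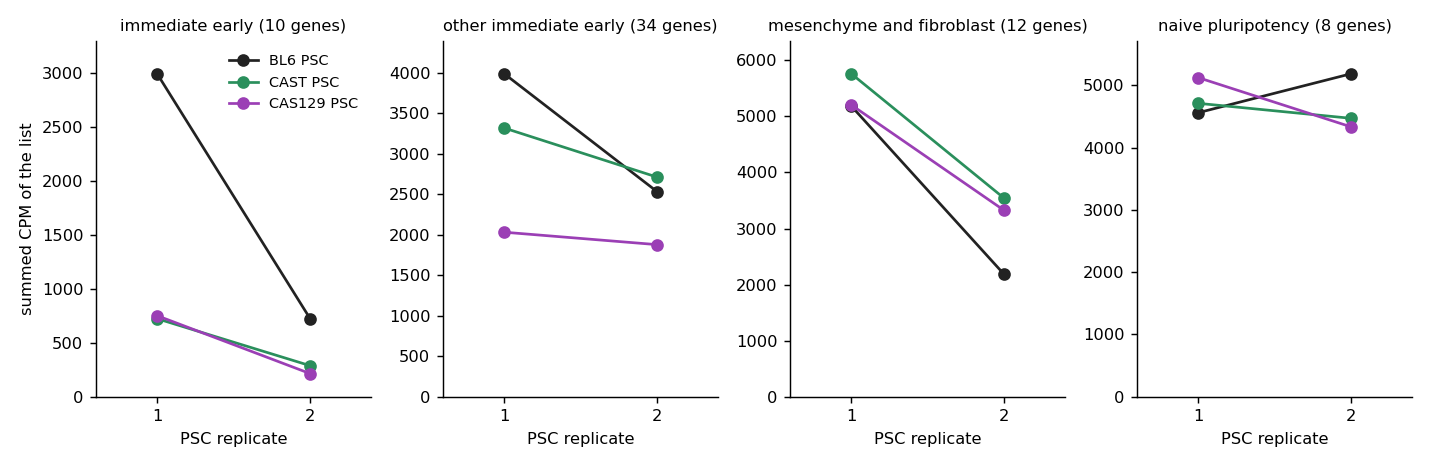
Summed CPM (vertical axes from 0) of 4 gene lists in PSC replicates 1 and 2 (horizontal axis), a line for each genotype. The 10 immediate early genes sum to 723.7 to 2994 CPM in replicate 1 and 215.2 to 725.3 CPM in replicate 2, and the mesenchyme list to 5185 to 5761 CPM and 2182 to 3540 CPM.

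Between stem cell genotypes, Junb was called lower than in BL6 PSC in both CAST and CAS129. It was lower in CAST than in BL6 PSC by a log2 of -2.81 (SE 0.46, adjusted p = 0.0078), at 22.6 ± 7.46 CPM (SD, n = 2) against 162.2 ± 64.3 CPM (n = 2). Junb was also lower in CAS129, at 30 ± 12.9 CPM (n = 2; log2 -2.38, SE 0.45, adjusted p = 0.0058). BL6 did not overlap with CAST or CAS129, which overlapped with each other. For Ier2 and Dusp1, BL6 likewise lay above both, but neither was called with the filter. Ier2 was at a log2 of -1.08 in CAST and -0.88 in CAS129 (adjusted p = 0.14 and 0.15). Dusp1 was at -1.18 and -1.13 (adjusted p = 0.18 and 0.15). In CAST against BL6, Junb was the 1 member called with the filter on low counts. Without the filter 8 members and 2682 of 19073 genes were called. With the filter, 10.5% of all genes were called in either direction and 4.81% lower, and the adjusted p of Junb became 0.071 without CAST PSC replicate 2. In CAS129, Junb and Ier3 were called, both lower, beside 25.8% of all genes and 17% called lower. Without the filter 9 members and 4474 of 19073 genes were called there. Of CAS129 against CAST PSC, Ier3 alone was called (14% of all genes, of which 16.2% were higher with TMM and 29.0% with upper-quartile scaling). Fos, Fosb and Egr1 had log2 values of -2.07 to -2.97 in CAST against BL6 PSC, but with SE of 1.36 to 2.68 they did not pass. This fit has no term for the replicate number, so the gap between replicates counts as spread.

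The second question was how MN differed from PSC, over 17 libraries of the 3 genotypes with both cell types. Ier2, Fos and Fosb were lower in MN, Jun and Myc were higher, and the other 5 members did not pass, while 74.6% of the 15596 genes tested were called, 36.1% higher and 38.5% lower. The members' share of 5 in 10 lies below that background. Ier2 spanned 92.2 to 325.5 CPM in PSC (median 161.6, n = 6) and 23.4 to 127.2 CPM in all MN (median 58.4, n = 14). The log2 of -1.65 (SE 0.29, adjusted p = 6.8e-05) passed, and the overlap came from the CAS129 MN libraries. Jun spanned 8.61 to 240.0 CPM in PSC (median 42.1) and 73.8 to 303.0 CPM in MN (median 208.3), higher by a log2 of 1.17 (SE 0.38, adjusted p = 0.011). Myc spanned 0 to 41.5 CPM in PSC (median 11.8) and 28.3 to 68.7 CPM in MN (median 39.9), higher by 1.56 (SE 0.54, adjusted p = 0.015).

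For Fos the log2 was -1.75 (SE 0.51, adjusted p = 0.0051) and for Fosb -4.25 (SE 1.09, adjusted p = 0.002), but 1 library carried both calls. Without BL6 PSC replicate 1 they were -0.48 (adjusted p = 0.48) and -2.81 (adjusted p = 0.16). Fos spanned 15.2 to 601.5 CPM in PSC and 15.6 to 100.5 CPM in MN (medians 61.7 and 51.8). Fosb spanned 0 to 663.0 CPM in PSC and 1.73 to 44.4 CPM in MN (medians 43.5 and 5.56). Every MN value of Fosb lay between the PSC libraries numbered 1 and those numbered 2. Junb (0.74, SE 0.34, adjusted p = 0.06), Egr1 (-0.25, SE 0.83), Egr2 (-0.77, SE 1.01), Ier3 (0.32, SE 0.44) and Dusp1 (-0.51, SE 0.26, adjusted p = 0.086) did not pass. Junb passed with RLE scaling (0.81, adjusted p = 0.035), with DESeq2 (0.82, adjusted p = 0.028) and without BL6 PSC replicate 1 (1.31, adjusted p = 0.0016). Dusp1 passed with a term for the replicate number (-0.67, adjusted p = 0.039) and without CAS129 PSC replicate 2 (-0.68, adjusted p = 0.02). Ier3 passed without BL6 PSC replicate 2 (1.28, adjusted p = 0.039). The median of the members was -0.38, against -0.05 over all genes.

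Set against each stem cell replicate in turn, in fits chosen after seeing the data, the same MN libraries gave different values. This split follows the number along which the genes above differed, so it restates that gap and is given as a description, not as a test. Against the PSC libraries numbered 1, Fos was at -2.54, Fosb at -5.18, Egr1 at -1.22 and Egr2 at -1.92. Against those numbered 2, Fos was at 1.02 and Egr1 at 4.13. Fosb, with 12, 0 and 0 counts in these 3 PSC libraries, was fitted at 4.59, and Egr2, with 0 counts in all 3, at 6.66. The last 2 depend on the prior count and are no bounds, and Egr1 had 0 counts in 1 of the 3. Ier2 was on the same side in both (-2.01 and -1.14), as were Jun (0.49 and 2.84), Myc (1.53 and 1.98) and Junb (0.38 and 1.32). Ier3 was at 1.85 and -0.29, and Dusp1 at -0.92 and 0.26. Past the threshold were 9 and 8 members, beside 69.9% and 69.9% of all genes, and each PSC side holds 1 library a genotype.

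**Figure D4:**
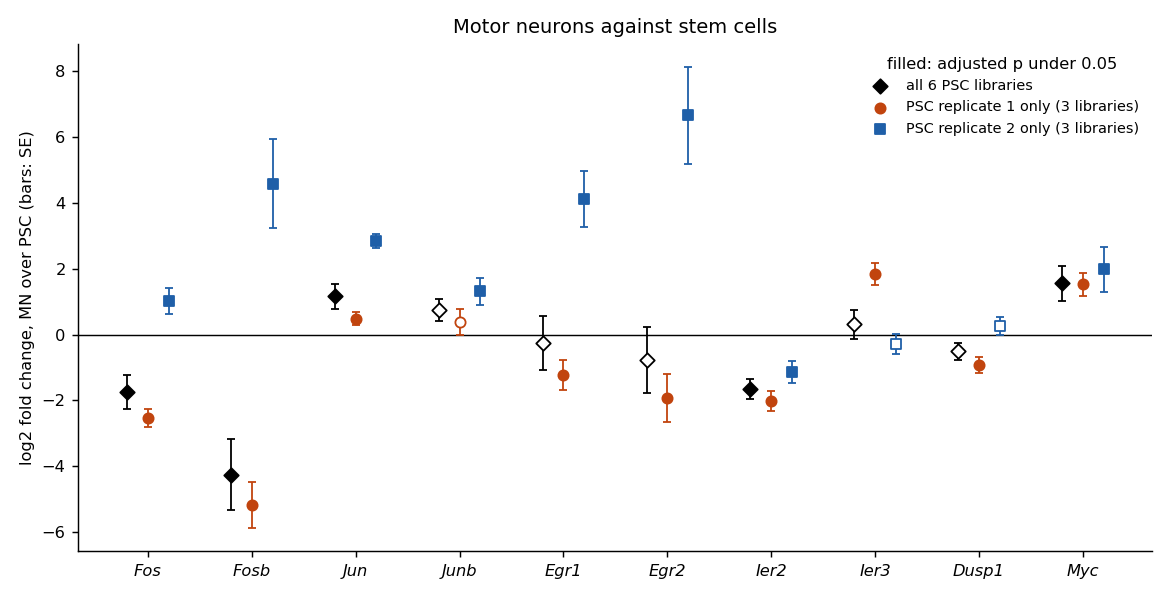
Log2 fold change of MN over PSC (vertical axis, bars SE) for each immediate early gene with all 6 PSC libraries, with those numbered 1 and with those numbered 2. Filled symbols passed an adjusted p of 0.05; Fos, Fosb, Egr1 and Egr2 are below 0 against replicate 1 and above 0 against replicate 2.

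Of all genes tested in this comparison, 36.1% were called higher and 38.5% lower, so calls of single genes below are ordinary for it. Among the other immediate early genes, 17 of 34 were higher in MN and 9 lower, with a median of 0.71 against -0.05 over all genes. Ccn2, at a median of 1972 CPM in MN and 45.9 CPM in PSC, was higher by a log2 of 3.45 (SE 0.76, adjusted p = 0.00097), Ptgs2 by 4.66 (SE 0.55) and the small GTPase Rhob by 2.98 (SE 0.21). Ccn1 was higher by 1.74 (SE 0.68, adjusted p = 0.032), at a median of 719.7 CPM in MN and 29.8 CPM in PSC. All 12 mesenchyme genes were also higher in MN, with a median of 3.12, and their part in these values was not tested. Of the ERK phosphatases and feedback genes, 5 of 15 were higher and 3 lower: Dusp4 rose by 2.77 (SE 0.32), whereas Dusp9 and the ERK target Etv5 were lower at -3.31 (SE 0.28) and -2.96 (SE 0.25). Of 3 Egr corepressors and relatives, 2 rose, Nab1 by 2.15 (SE 0.19) and Nab2 by 1.07 (SE 0.39). In the Myc network, 3 of 9 were higher, with the Max partner Mxd4 up by 3.72 (SE 0.20), and 5 were lower, with Mga at -1.52 (SE 0.20). Of the SRF and ERK path, 8 of 24 were higher and 6 lower, with the kinase Map2k1 lower at -0.96 (SE 0.11) and the JNK kinase Mapk9 higher at 1.14 (SE 0.19). Of the AP-1 and ATF partners, 7 of 13 were higher and 3 lower, with Atf5 at 1.54 (SE 0.21) and Atf4 at -0.57 (SE 0.17).

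Within genotypes, BL6 MN against BL6 PSC called Fos (-2.19), Fosb (-4.59) and Ier2 (-2.16), all lower, beside 70.2% of all genes in either direction and 34.2% lower. Ier2 was at 58.4 ± 18.7 CPM in BL6 MN (n = 7) and 261.1 ± 91.2 CPM in BL6 PSC (n = 2), with no overlap (SE 0.30, adjusted p = 7e-06). Without BL6 PSC replicate 1, Fos was higher in MN at 2.15 (adjusted p = 0.027) and Fosb stood at 3.88 (adjusted p = 0.24). In CAST, with 1 MN library that is assumed to vary like the other groups, 56.0% of all genes were called. Junb was higher, at 80.8 CPM against 22.6 ± 7.46 CPM (1.84, SE 0.52, adjusted p = 0.0064), and Ier2 lower, at 32.9 CPM against 120.3 ± 39.8 CPM (-1.87, SE 0.57, adjusted p = 0.01). The Junb call was lost without CAST PSC replicate 2 (1.53, adjusted p = 0.056), and the Ier2 call without CAST PSC replicate 1 (-1.49, adjusted p = 0.052).

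In CAS129, 54.4% of all genes were called, 30.4% higher. Junb was higher in MN at 122.8 ± 13.6 CPM (n = 3) against 30 ± 12.9 CPM (2.03, SE 0.43, adjusted p = 0.00082), Jun at 76.1 ± 3.87 CPM against 21.2 ± 17.8 CPM (1.83, SE 0.65, adjusted p = 0.026) and Myc at 34.8 ± 5.47 CPM against 3.68 ± 5.2 CPM (3.17, SE 0.89, adjusted p = 0.006). Without CAS129 PSC replicate 2 none of the 3 passed: Junb was at 1.37 (adjusted p = 0.052), Jun at 0.90 (adjusted p = 0.36) and Myc at 1.97 (adjusted p = 0.079). The Jun call was also lost with any 1 MN library left out (adjusted p = 0.076 to 0.085) and with RLE scaling (1.55, adjusted p = 0.052). Without CAS129 PSC replicate 1, Myc was fitted at 11.77 against a library with 0 counts, which is no bound.

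A test of the difference itself set the MN change in CAS129 against that in BL6. It called Junb at a log2 of 2.20 (SE 0.54, adjusted p = 0.0096) and Ier2 at 1.88 (SE 0.51, adjusted p = 0.017), both higher. The same test called 18.2% of all genes and 13.7% higher, and of the calls 75.1% were higher with TMM and 53.0% with RLE scaling, and the median of all genes moved from 0.26 to 0.00 between them. With RLE scaling, Junb was at 1.91 (adjusted p = 0.025) and Ier2 at 1.59 (adjusted p = 0.046). Neither passed without CAS129 PSC replicate 2, with Junb at 1.62 (adjusted p = 0.13) and Ier2 at 1.33 (adjusted p = 0.19). The Ier2 call was also lost at 1.47 when BL6 PSC replicate 1 was left out, at 1.70 for BL6 MN replicate 7, and at 1.71 and 1.63 for CAS129 MN replicates 1 and 2 (adjusted p = 0.05 to 0.081). In the same test 7 of 8 naive pluripotency genes were called higher, with a median of 4.78, and their part in the Junb and Ier2 values was not tested.

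Among motor neuron genotypes, Jun, Fos, Ier2, Egr1 and Ier3 were called in at least 2 of 3 comparisons, Ier3 with 0 counts in the hybrid. Jun was highest in BL6 MN, from 209.8 to 303.0 CPM (median 248.4, n = 7), at 158.8 and 206.8 CPM in 129 MN, at 183.0 CPM in the CAST library, at 97.3 CPM in the 129CAS library and at 73.8 to 80.5 CPM in CAS129 MN (n = 3). BL6, 129 and CAS129 did not overlap. It was lower than in BL6 by a log2 of -0.61 in 129 (SE 0.15, adjusted p = 0.0078) and by -1.84 in CAS129 (SE 0.14, adjusted p = 1.9e-07), and lower in CAS129 than in 129 by -1.23 (SE 0.17, adjusted p = 4.7e-05). The first of these was lost without 129 MN replicate 1 (-0.45, adjusted p = 0.14). Fos was at 43.5 to 100.5 CPM in BL6 (median 57.8), 45.8 and 64.8 CPM in 129, 56.3 CPM in CAST and 41.6 CPM in 129CAS, and lower in CAS129 at 15.6, 17.2 and 24.4 CPM. The CAS129 libraries lay under all others, with a log2 of -1.94 against BL6 (SE 0.30, adjusted p = 0.00012) and of -1.50 against 129 (SE 0.35, adjusted p = 0.0028). The CAS129 MN libraries also held the lowest sums of 10 pan-neuronal genes, 1074 to 1469 CPM against 4126 to 13057 CPM in the other MN, and naive pluripotency genes at 409.1 to 1063 CPM against 44.7 to 120.5 CPM. In addition, 263 of 6262 genes over 10 CPM in every non-hybrid library had 0 counts in every hybrid library. Jun in both hybrids lay under its CAST and 129 values. The part of these differences in the CAS129 values was not tested.

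Ier2 went the other way. It was at 93.3, 118.3 and 127.2 CPM in CAS129 MN, at 23.4 to 77.6 CPM in BL6 MN (median 66.4), at 23.8 and 26 CPM in 129, at 32.9 CPM in CAST and at 35.7 CPM in 129CAS. The CAS129 libraries lay above all others. The log2 was 0.84 against BL6 (SE 0.27, adjusted p = 0.018) and 2.21 against 129 (SE 0.40, adjusted p = 0.00049). The first was lost without CAS129 MN replicate 1 (adjusted p = 0.059) or 2 (adjusted p = 0.079). In 129 it was lower than in BL6 by -1.37 (SE 0.36, adjusted p = 0.0094), and not called without 129 MN replicate 1 (adjusted p = 0.083) or 2 (adjusted p = 0.074).

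Egr1 was at 28.7 to 279.9 CPM in BL6 MN (median 142.6), at 39.5 and 49 CPM in 129, at 34.1 CPM in CAST, at 48.6 CPM in 129CAS and at 111.8 to 156.5 CPM in CAS129. It was lower in 129 than in BL6 (-1.92, SE 0.59, adjusted p = 0.022) and higher in CAS129 than in 129 (1.69, SE 0.62, adjusted p = 0.035). Both calls were lost when either 129 library was left out (adjusted p = 0.11 to 0.15), and the second also without CAS129 MN replicate 1 (0.07) or 3 (0.072). Myc was lower in CAS129 (28.9 to 39.8 CPM) than in BL6 MN (28.3 to 68.7 CPM, median 67.8) by -0.86 (SE 0.27, adjusted p = 0.014), which became 0.07 without CAS129 MN replicate 3. Called members numbered 3 of 10 in 129 against BL6, all lower (36.4% of all genes, 18.1% lower), 5 in CAS129 against BL6 (59.5%) and 5 in CAS129 against 129 (56.7%), Ier3 included in the last 2. Without 129 MN replicate 1 the first count was 0, without 129 MN replicate 2 it was 1, and without BL6 MN replicate 2 it was 5. In none of these 3 comparisons, which share their groups, were Fosb, Junb, Egr2 or Dusp1 called.

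Among the 7 BL6 MN libraries, no single one was far from the rest by Dixon's test for any member. That test sets the extreme library against its neighbour, so it cannot flag 2 libraries that lie apart together. Fosb was such a case, at 32.8 and 44.4 CPM in replicates 5 and 6, and at 1.73 to 5.35 CPM in the other 5. Replicates 5 and 6 were also the closest by counts of the 28 pairs within groups, with a chi-square of 2.96 per degree of freedom. Replicate 2 was the lowest of the 7 for Egr1 (28.7 CPM), Junb (55.5 CPM), Ier2 (23.4 CPM), Dusp1 (84.1 CPM), Ier3 (48 CPM), Myc (28.3 CPM), Egr2 (0.203 CPM) and Fosb (1.73 CPM), and the highest for Jun (303.0 CPM). It also held the highest sums of the 7 for pan-neuronal genes (13057 CPM), motor neuron genes (1842 CPM) and glial genes (296.3 CPM, with 1 of 8 at 0). Whether these values belong together was not tested.

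Ier3 was counted at 0 in all 6 hybrid libraries and at 10.3 to 115.5 CPM in the 14 others. In MN it was at 48 to 113.3 CPM in BL6, 51.2 CPM in CAST and 52.5 and 80.9 CPM in 129. This was no feature of Ier3 alone: of 6262 genes over 10 CPM in every library that was not a hybrid, 263 had 0 counts in every hybrid library. Ccn1 and Ccn2 had 0 counts in all 6 as well. A count of 0 allowed up to 0.587 CPM in the shallowest of these libraries. What made them 0 was not tested, and the fitted folds of Ier3 against the hybrids are no bounds and are not given.

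Per kilobase of exon, Ier2 was the highest member in all 3 PSC groups, at mean levels of 171.5 CPM per kb in BL6, 79.1 in CAST and 90 in CAS129. Fos was the second in BL6 PSC (131.1) and Dusp1 the second in CAST (33.7) and CAS129 (34.7). In MN the order depended on the genotype: Jun led in BL6 (79.5) and CAST (57.4), Ier3 in 129 (59, just above Jun at 57.3), Ier2 in CAS129 (74.2) and Dusp1 in 129CAS (53.7, just above Junb at 52.1). Egr2 and Fosb were the lowest of the detected members in all 5 MN groups, at 0.127 to 0.72 and 0.648 to 2.21 CPM per kb. In PSC the order rests on the spread given above, since Fos, Fosb and Egr1 differed more between replicates than neighbours in the order did from each other.

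Likeness was described by Pearson's r between deviations of log2(CPM + 1) from the group mean, over the 18 libraries of the 6 groups with 2 or more. The points share libraries, and in a group of 2 both deviations are mirror images, so the 6 PSC points hold 3 independent differences. Junb and Ier2 were at 0.94 over all 18 and at 0.92 in MN (n = 12). Egr1 and Egr2 were at 0.97 in PSC and 0.61 in MN. Jun was like Fosb in PSC (0.99) and much less so in MN (0.39), and with Egr1 the value was 0.97 in PSC and -0.36 in MN. Ier3 ran against Fos in PSC (-0.84) and with Dusp1 in MN (0.92). Over all genes, the closest to each member were Hspa13 for Fos (0.97), Dkk3 for Fosb (0.95), Mfap3l for Jun (0.97), Frmd6 for Junb (0.96), Gm15270 and Prss23 for Egr1 (0.98 each), Pkd2 for Egr2 (0.96), Sgk1 for Ier2 (0.94), Snord49a for Ier3 (0.94), Palld for Dusp1 (0.95) and Extl3 for Myc (0.98).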

How the data were processed

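The deposited table holds whole-number counts of reads for each gene, not normalised by the authors. Per the submitters' processing notes, STAR and GRCm38 (mm10) were used for the 20 libraries; no source used here gives their counting program, annotation or strand setting (TopHat2 2.1.1, SAMtools and HTSeq are named only for samples not analysed here). Names tied 20 of 28 columns to samples, leaving 8 unused, and 7 further samples were not analysed here. Names, positions, exon lengths and 3′ UTRs came from GENCODE M21 on GRCm38 (41 of 27071 identifiers unmatched). Per the labels' protocols, RNA was captured on poly-T beads and primed with random hexamers.

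CPM were scaled with TMM factors. Genes reaching 1 CPM in at least 2 libraries of a fit were tested with edgeR 4.0.16 in R 4.3.3 (glmQLFit, glmQLFTest, 2-sided, Benjamini-Hochberg over all genes tested, threshold 0.05); every adjusted p is from this test unless DESeq2 1.42.0 is named. The SE is the absolute log2 fold change over the square root of F. MN and PSC were compared with genotype as a term over 17 libraries; changes within a genotype came from 1 fit over 8 groups; genotypes were compared within 6 PSC or 14 MN libraries, and replicate numbers within the 6 PSC libraries with genotype as a term. That makes 12 comparisons. Intervals of ratios are exact binomial (Clopper-Pearson), with a floor of 3 counts per library. No pair of the 28 within-group pairs looked like 1 library deposited more than once (lowest chi-square per degree of freedom 2.96). The fits were tested on simulated data.

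All 10 members are named. From each other list, up to 4 genes called between MN and PSC and up to 3 called between PSC replicates were eligible, by mean CPM, and the 3 most alike genes per member, of which the first is given. The members and lists were chosen with earlier results of these data known. The lists not described with values above were glia (8 genes; 2 higher and 4 lower in MN), microglia and blood (6; 2 lower), motor neuron (9; 8 higher), pan-neuronal (10; 10 higher), naive pluripotency (8; 8 lower) and heat shock and stress (15; 2 higher, 8 lower). Alternatives were RLE and upper-quartile scaling, no filter, DESeq2, a replicate block, each library left out and, added later, PSC libraries of 1 number only.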

Additional observations from a re-analysis of the deposited data

Results flagged for a closer look

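For 2 members a test of the difference itself set the MN change in CAS129 apart from that in BL6. For Junb the difference was a log2 of 2.20: its mean went from 30 ± 12.9 CPM (SD, n = 2) to 122.8 ± 13.6 CPM (n = 3) in CAS129 and went from 162.2 ± 64.3 CPM (n = 2) to 144.2 ± 47.5 CPM (n = 7) in BL6. For Ier2 the difference was a log2 of 1.88: it went from 137.0 ± 53.3 to 112.9 ± 17.6 CPM in CAS129 and from 261.1 ± 91.2 to 58.4 ± 18.7 CPM in BL6. In the same test 7 of 8 naive pluripotency genes were called higher (median 4.78), and CAS129 MN held the lowest pan-neuronal sums of the MN (1074 to 1469 CPM). The part of either was not tested. Neither difference passed without CAS129 PSC replicate 2. Among the 10 member groups of 4 to 10 libraries, all of them BL6 MN, none held a single library far from the rest by Dixon's test. The test cannot flag 2 libraries that lie apart together.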

How the results depend on the processing

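Replicate numbers are shared between groups, but were not taken to pair the samples: over 15846 genes the deviations of same-numbered PSC libraries correlated at 0.35 (BL6 with CAST), -0.02 (BL6 with CAS129) and 0.46 (CAST with CAS129). With a replicate block, members called went from 5 to 3 in MN against PSC, from 1 to 7 in CAST against BL6 PSC, from 2 to 8 in CAS129 against BL6 PSC and from 1 to 2 in CAS129 against CAST PSC, and Egr1 in MN against PSC turned to 0.68. There the block also ended the calls of Fos (-1.23, adjusted p = 0.091), Fosb (-2.97, adjusted p = 0.083) and Myc (1.44, adjusted p = 0.12). Dusp1 gained a call there (-0.67, adjusted p = 0.039). Calls of Fos (-1.69, adjusted p = 0.16) and Fosb (-4.83, adjusted p = 0.063) ended in BL6 MN against BL6 PSC. Those of Egr1 (-1.04, adjusted p = 0.29) and Ier2 (-0.89, adjusted p = 0.18) ended in 129 against BL6 MN. Myc in CAS129 against BL6 MN (-0.43, adjusted p = 0.26) was lost. So was Egr1 in CAS129 against 129 MN (1.27, adjusted p = 0.12). With the block, 1886 of all genes were called for the change in CAS129 against BL6, and 2883 without it. The block called 10101 of 15596 genes in MN against PSC. Of 13795 genes in PSC, the block called 2161 in CAST against BL6, 4312 in CAS129 against BL6 and 2426 in CAS129 against CAST.

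Fits with PSC libraries of 1 number only were added after seeing the data. In MN against PSC they called 9 members (number 1) and 8 (number 2), beside 69.9% and 69.9% of all genes. Within a genotype such fits leave 1 PSC library a group, so their calls are not counted here. With number 2, Fos (1.02), Fosb (4.59), Egr1 (4.13), Egr2 (6.66), Ier3 (-0.29) and Dusp1 (0.26) turned in MN against PSC, and Fos (2.08) and Fosb (3.81) in BL6. This split follows the number along which the genes differed, so it restates that gap, and Egr2 was fitted against libraries with 0 counts. With no filter on low counts, members called were 8 in CAST and 9 in CAS129 against BL6 PSC and 3 in CAS129 against CAST PSC. Of 19073 genes, 2682, 4474 and 2772 were called in these comparisons. DESeq2 called 5 members in 129 against BL6 MN (6059 of 14837 genes) and 9 between PSC replicates (348 of 13795 genes).

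With each library left out, members called ranged from 4 to 6 in MN against PSC, 3 to 5 in BL6, 2 to 3 in CAST, 2 to 4 in CAS129, 0 to 4 for the change in CAS129 against BL6, 0 to 1 in CAST against BL6 PSC, 2 to 3 in CAS129 against BL6 PSC, 0 to 1 in CAS129 against CAST PSC, 0 to 5 in 129 against BL6 MN, 4 to 7 in CAS129 against BL6 MN, 4 to 5 in CAS129 against 129 MN and 5 to 10 between PSC replicates. Without BL6 PSC replicate 1, Egr1 (1.40) and Egr2 (0.13) turned in MN against PSC, and Fos (2.15) and Fosb (3.88) in BL6; without CAST PSC replicate 1, Egr1 (0.26) and Egr2 (0.00) turned. With each library left out, log2 values ran from -0.60 to 1.40 for Egr1 and -1.28 to 0.13 for Egr2 in MN against PSC, and from -3.24 to 2.15 for Fos and -5.66 to 3.88 for Fosb in BL6. The cause of these moves was not tested. Between PSC replicates a left-out library removes its genotype from the test, so the counts of all genes given below do not measure how firm the calls are.

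Counts over all genes moved by over 1.5 times between PSC replicates, from 97 to 280 with no filter, 348 with DESeq2 and 117 to 958 with a library left out. They moved from 1455 to 2682 with no filter, 2222 with DESeq2 and 316 to 2105 with a library left out in CAST against BL6 PSC. Left-out libraries gave 2132 to 3658 (against 3553) in CAS129 against BL6 PSC, 1112 to 1320 (against 1933) in CAS129 against CAST PSC, 2764 to 6324 (against 5397) in 129 against BL6 MN and 1409 to 3664 (against 2883) for the change in CAS129 against BL6. Ratios within BL6 PSC without a scaling factor stood at log2 values of 2.43 for Jun, 1.01 for Junb, 0.91 for Ier2, -2.16 for Ier3 and 1.23 for Dusp1. Of the member fold changes followed under an alternative, 550 kept direction and call, 34 gained and 45 lost a call, and 15 turned. All members were followed in MN against PSC and between PSC replicates. In the other comparisons only members called in the main fit were followed, without Ier3 where CAS129 was compared. Calls gained there by other members are therefore not counted. The pairs of PSC libraries set the precision: ratios rest on 1 library a side.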
